A study of Mus musculus with 2 samples.

Results

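Mast cells are tissue-resident immune cells that store histamine, heparin-type proteoglycans and proteases in granules and release them when antigen cross-links IgE on their surface. They depend on the receptor tyrosine kinase KIT and its ligand, and in mouse the connective-tissue type carries chymases, tryptases and carboxypeptidase A3, whereas the mucosal type of the epithelium carries other chymases. In the lung they lie around airways, vessels and in the pleura, and they have been studied in fibrosis for their proteases and mediators. The genes described here are 8 mast cell genes, namely Cpa3, Kit, Cma1, Mcpt4, Tpsb2, Fcer1a, Ms4a2 and Hdc. Each was looked up by its symbol in the deposited array annotation, and 7 of the 8 were found, each on 1 transcript cluster, among 19122 genes with 1 symbol. Hdc had no cluster under its symbol and was skipped by that rule. A cluster without a symbol lies over its locus and is described separately.

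Gene expression was measured in lungs of male C57BL/6 mice, an inbred strain. The irradiated group received a single gamma-ray exposure of the chest at 7 weeks of age, delivered at 0.81 Gy/min, and the other group was nonirradiated. The total dose, and how many mice contributed to each array, are not given in the sources used here. Lungs were taken after 25 weeks, and the irradiated mice were described as overexpressing alpha-smooth muscle actin. Each group was measured on 1 array, so there is no replicate error, no test and no p-value, and every difference below compares 2 arrays. All values are on the log2 scale of RMA, and differences are irradiated minus nonirradiated. RMA normally forces the arrays onto a common distribution, and array values of different genes are not compared as levels. In whole tissue, more cells of a type and more RNA per cell cannot be told apart. The lung label was checked against 6 lung epithelial genes, all bright, among them the surfactant gene Sftpc at 13.42 and 13.39 and the club cell gene Scgb1a1 at 13.41 and 13.42 in the nonirradiated and irradiated array.

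The upstream sequences of mast cell genes are shown first, because GATA-family factors, foremost GATA2, and the E-box factor MITF are known regulators of mast cell genes. The 4 genes printed are the 3 members with the largest positive differences and Hdc, whose locus differed the other way. Each sequence is the 250 bases before a RefSeq transcript start (GRCm38.p6), 5′ to 3′ on the minus strand, on which all 4 genes lie. Capitals mark a GATA motif, searched on both strands as AGATAA and AGATAG and in the same forms beginning with T, TGATAA and TGATAG. The windows are chr3:20242182-20242431 for Cpa3, chr14:55944676-55944925 for Cma1, chr14:56062311-56062560 for Mcpt4 and chr2:126618679-126618928 for Hdc. The Hdc window lies inside the RefSeq span of Hdc, which runs to 126624025, and inside the unnamed cluster over that locus. It therefore precedes an internal transcript start.
Cpa3: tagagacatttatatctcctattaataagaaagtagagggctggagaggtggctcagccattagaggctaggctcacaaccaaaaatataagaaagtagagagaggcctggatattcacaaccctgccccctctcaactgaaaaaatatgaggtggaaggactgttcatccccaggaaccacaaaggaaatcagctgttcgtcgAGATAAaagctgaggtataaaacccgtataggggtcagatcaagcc
Cma1: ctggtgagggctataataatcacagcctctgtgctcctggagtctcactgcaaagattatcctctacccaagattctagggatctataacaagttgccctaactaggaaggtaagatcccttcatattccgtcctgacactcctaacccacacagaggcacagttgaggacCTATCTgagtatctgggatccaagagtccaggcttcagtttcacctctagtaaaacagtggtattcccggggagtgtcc
Mcpt4: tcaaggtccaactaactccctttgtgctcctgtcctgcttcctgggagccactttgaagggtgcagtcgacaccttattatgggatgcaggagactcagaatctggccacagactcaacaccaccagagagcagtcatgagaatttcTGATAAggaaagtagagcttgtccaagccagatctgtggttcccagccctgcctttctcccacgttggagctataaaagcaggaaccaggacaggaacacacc
Hdc: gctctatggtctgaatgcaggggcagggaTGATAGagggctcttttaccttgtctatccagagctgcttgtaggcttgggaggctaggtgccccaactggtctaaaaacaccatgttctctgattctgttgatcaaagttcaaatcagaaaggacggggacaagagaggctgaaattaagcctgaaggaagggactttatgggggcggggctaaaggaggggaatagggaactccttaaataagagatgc

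The motif began 46 bases before the start in Cpa3, 79 in Cma1, 103 in Mcpt4 and 221 in Hdc. RefSeq promoter windows were matched for 7 of the 8 genes, all but Tpsb2, and a GATA motif was found in 6 of the 7, with none in either Kit window. Across 32851 promoter windows of the same length, 26.5% held one. The E-box forms CATGTG and CACGTG, searched on both strands, were found only in the Fcer1a window among the 7 genes, against 17.6% of all windows. These matches describe letters in a window, and binding was not measured.

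Of the 7 members with a symbol, 6 had a higher value in the irradiated array and 1 a lower value, whereas 45.3% of all genes were higher. The median member difference was 0.35, against -0.02 over all genes. Cpa3, the gene of the granule carboxypeptidase, was the one member at least 1.5-fold higher, and 2.07% of all genes were. None was at least 2-fold higher, against 0.335% of all genes, and none was at least 1.5-fold lower, against 1.2% of all genes. At 1.2-fold, 5 of the 7 members were higher and none lower, against 11.9% and 13.8% of all genes. A gene was called bright when its value reached the median over genes (7.27 nonirradiated, 7.26 irradiated) in at least 1 array. Among members, Cpa3 and Kit were bright in both arrays, and the other 5 were dim in both, below the median of intron control rows as well (6.33 nonirradiated, 6.58 irradiated). Of the 5 dim members 3 were at least 1.2-fold higher, against 15.7% of dim genes.

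**Figure D1:**
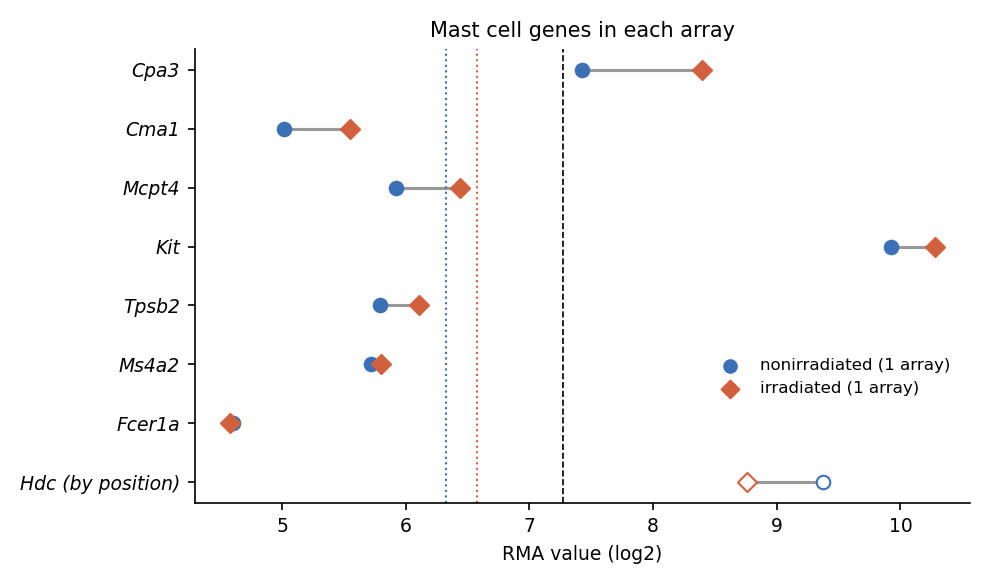
RMA values (log2, x axis) of the 7 mast cell genes and of the unnamed cluster at the Hdc locus (open symbols) in the nonirradiated array (circles) and the irradiated array (diamonds), 1 array each. Dotted lines are the medians of intron control rows in the array of that colour, and the dashed line is the median over genes in the nonirradiated array (7.27). Cpa3 has the widest gap of the members, from 7.42 to 8.39, and the Hdc locus runs the other way, from 9.37 to 8.76.

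Granule proteases made up 4 members, and all were higher in the irradiated array. Cpa3 (cluster 17404337, chr3:20215616-20242181, minus strand, GRCm38, 25 probes) read 7.42 without and 8.39 with irradiation, a difference of 0.97 or 1.96-fold. Its difference ranked at position 74 from the top among the 19122 genes. In the authors' deposited table of rows at 1.5-fold, Cpa3 was the one member listed, and no member stood in the authors' deposited table at 2-fold.

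Cma1, the mouse alpha-chymase, read 5.02 and 5.55 (chr14:55941451-55944661, minus strand), a 1.44-fold higher value. Mcpt4, the main connective-tissue chymase of mouse, read 5.92 and 6.44 (chr14:56059744-56062310, minus strand), 1.43-fold higher and on only 11 probes. Tpsb2, the tryptase known as mouse mast cell protease 6, read 5.79 and 6.11 (chr17:25366333-25368859, plus strand), 1.25-fold higher. These proteases were dim in both arrays. Intron control rows, which probe introns of normalisation genes, had a median difference of 0.27 with an SD of 0.61 over 2039 rows of mean value 4.5 to 6.5. The differences of Cma1 (0.53), Mcpt4 (0.51) and Tpsb2 (0.32) lay within that SD of that median. The 5049 genes of the same brightness had a median of 0.02 and an SD of 0.26, and each of the 3 differences was more than 1 such SD above that median. For Cpa3, the 3045 genes whose mean value lay within 0.5 of its own had a median difference of -0.06 and an SD of 0.27.

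The receptor genes did not share a difference. Kit, the receptor for stem cell factor, read 9.93 without and 10.28 with irradiation (chr5:75574916-75656722, plus strand), a difference of 0.35 or 1.27-fold. The 1733 genes within 0.5 of its mean value had a median difference of -0.03 and an SD of 0.23. Fcer1a, the IgE-binding alpha chain of the high-affinity IgE receptor, read 4.61 and 4.58 (chr1:173221271-173227229, minus strand), a difference of -0.03. Ms4a2, the beta chain that amplifies its signal, read 5.72 and 5.80 (chr19:11615523-11623719, minus strand), a difference of 0.08. The alpha and beta chains, which among mouse leukocytes mark mast cells and basophils, were thus dim and nearly equal in the 2 arrays. Fcer1a read below the medians of the antigenomic background control rows in both arrays (4.77 nonirradiated, 4.59 irradiated). This limits what its near-equal values can show. Fcer1g, the gamma chain shared with Fc receptors of macrophages and NK cells, was bright and read 11.25 and 11.18.

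**Figure D2:**
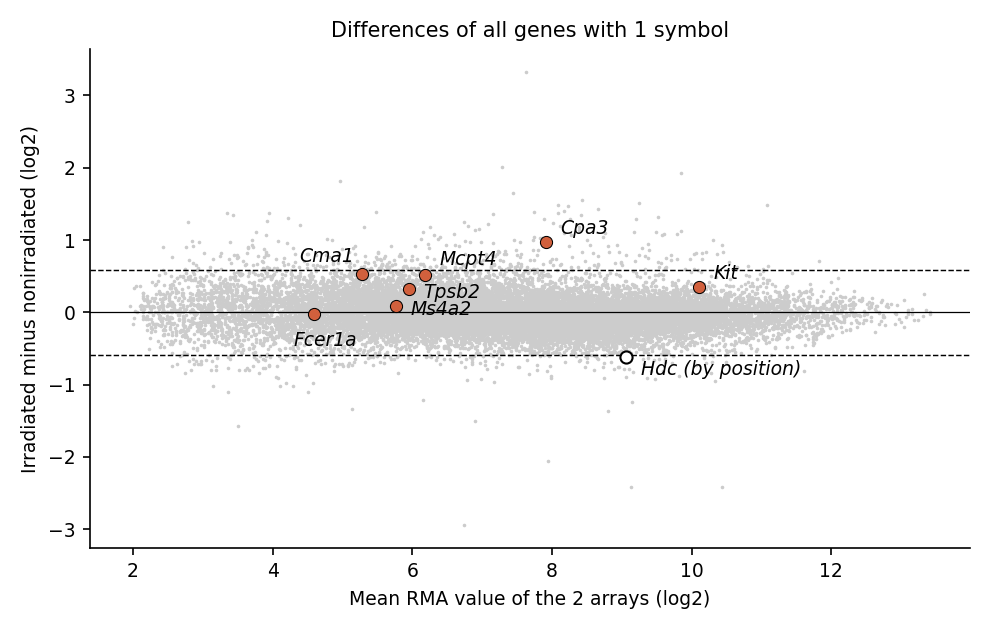
Difference between the arrays (irradiated minus nonirradiated, log2, y axis) against the mean RMA value (log2, x axis) for 19122 genes (grey) and the 7 mast cell genes (filled), with the unnamed cluster at the Hdc locus as an open circle. Dashed lines mark 1.5-fold. Cpa3 lies above the upper line at 0.97, and the remaining members lie between the lines.

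Hdc encodes histidine decarboxylase, which makes histamine. Cluster 17391094 (chr2:126593667-126619299, minus strand, GRCm38) carries no gene symbol and is annotated as a noncoding transcript, but it covers 84.4% of the RefSeq span of Hdc on the same strand. That overlap is of whole spans, introns included, and whether its probes lie in Hdc exons was not checked. Its value was 9.37 in nonirradiated and 8.76 in irradiated lung, which is 1.53-fold lower. It was bright in both arrays, rests on 27 probes, and is listed at 1.5-fold in the authors' deposited table. Of 13946 clusters without a symbol, 1.8% were at least 1.5-fold lower. Its direction was opposite to that of the 4 proteases and Kit. Neutrophils and basophils also express Hdc. Of 15 neutrophil genes, 8 were higher and 7 lower, with mean log2 values of 7.93 (nonirradiated) and 8.09 (irradiated). Their median of 0.11 had no stable sign, since it was -0.04 with the brightest row per gene or the main probe category alone, and -0.13 over bright genes. S100a8, an abundant neutrophil calcium-binding protein, differed by -0.53, the antimicrobial peptide gene Camp by 0.57, and the granule gene Ngp was 4.01-fold higher. The part of these cells in the value of the unnamed cluster was not tested.

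The relatives of the member proteases did not share their direction, and nearly all were dim. In the chymase locus on chromosome 14, 14 of 16 listed serine protease genes were measured. Without Cma1 and Mcpt4, 6 were higher and 6 lower, with a median of 0.01. Mcpt1 and Mcpt2, the chymases of mucosal mast cells, read 5.07 and 4.85, and 3.43 and 3.78, so the pair differed in opposite directions (-0.22 and 0.35). Mcpt8, a protease of basophils, read 6.25 and 6.11. Cma2, a chymase relative next to Cma1, differed by -0.32 and Mcpt9, on probes annotated as cross-hybridising, by -0.48. Gzmc, a granzyme of cytotoxic cells, differed by 0.48. Mcpt2, Cma2, Mcpt9 and Gzmc read below the antigenomic background medians (4.77 nonirradiated, 4.59 irradiated) in both arrays, which limits what their signs can show. Cma1, Mcpt4, Mcpt1 and Mcpt8 read above those medians but below the intron control medians in both arrays, so their signs are limited too.

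In the tryptase locus on chromosome 17, 8 of 9 listed genes were measured, and none was bright. Tpsg1, the membrane-anchored tryptase next to Tpsb2, read 6.13 and 6.04, a difference of -0.09. Prss28 and Prss34, serine proteases of the same locus, each differed by 0.20. Tpsab1, the tryptase known as mouse mast cell protease 7, is annotated by RefSeq as a transcribed pseudogene in C57BL/6. The unnamed cluster 17342238, with exactly its coordinates (chr17:25343245-25345562, minus strand), read 6.14 and 5.46, or 1.60-fold lower, and was dim in both arrays.

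**Figure D3:**
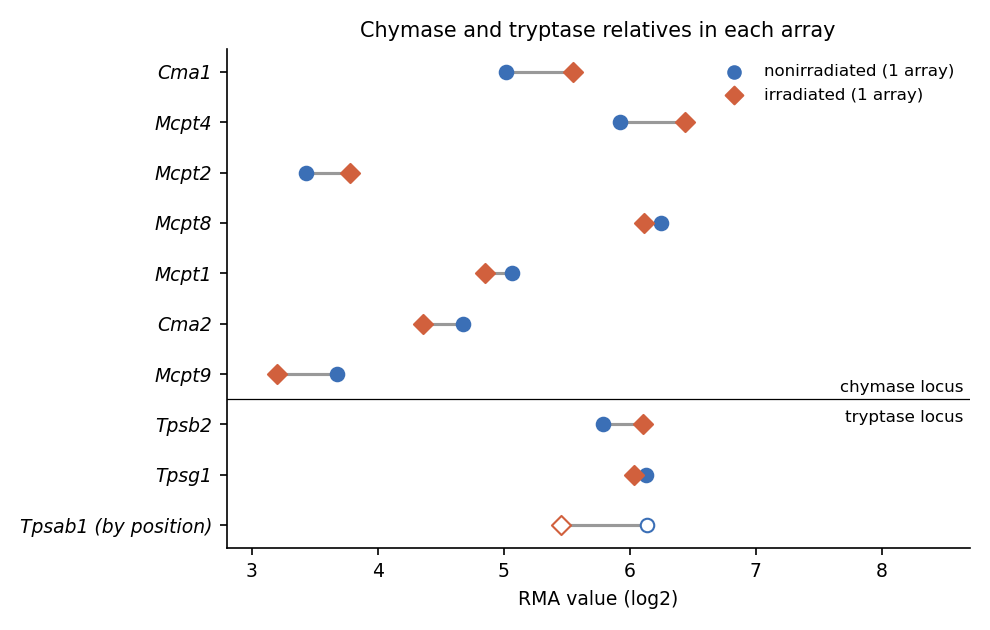
RMA values (log2, x axis) of mast cell proteases and their relatives in the nonirradiated (circles) and irradiated array (diamonds), 1 array each, with the chymase locus above and the tryptase locus below the line. Open symbols are the unnamed cluster at Tpsab1. Cma1, Mcpt4, Mcpt2 and Tpsb2 are higher in the irradiated array, and the others are lower. All are dim in both arrays.

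Genes that act with the members are described next in 6 groups, whose medians ran from -0.13 to 0.08. No gene matched by symbol in them reached 1.5-fold, against 2.07% of all genes higher and 1.2% lower. With shares that small, a count of none is not a result about these groups. The mediator group also lists Hdc, whose locus is described above. Beside Kit, Fcer1a and Ms4a2, 11 surface receptors of mast cells were measured, of which 6 were higher and 5 lower, with a median of 0.08. Ptger3, a prostaglandin E2 receptor that promotes mast cell degranulation, read 7.05 and 7.62, a difference of 0.57. Csf2rb, the shared beta chain of the IL-3, IL-5 and GM-CSF receptors, differed by -0.28. Mrgprb2, the mouse receptor for basic secretagogues, was dim at 4.51 and 4.59. Among 14 genes of IgE receptor signalling 8 were higher and 6 lower, with a median of 0.04. The kinase Fyn in it differed by 0.31, and Vav1, a guanine nucleotide exchange factor, by -0.21.

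Granule and mediator genes had a median of -0.13, with 5 higher and 8 lower of 13 measured. Vamp8, a membrane fusion protein of granule release, differed by -0.48, and Cd63, a granule membrane protein used as a degranulation marker, by -0.40. Hpgds, the prostaglandin D2 synthase of haematopoietic cells, differed by 0.29. Of 8 transcription factors 6 were higher, with a median of 0.06. Gata2 read 10.27 and 10.58, a difference of 0.30, while Cebpa, which directs myeloid fates away from the mast cell, differed by -0.46.

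Growth factors and cytokines had a median of 0.06 over 9 genes, of which 6 were higher and 3 lower. Kitl, the ligand of KIT, read 11.11 and 11.25. Il3, a growth factor of mouse mast cells, was dim at 5.43 and 5.17, and Csf2, which encodes GM-CSF, differed by -0.50. The receptors and enzymes that receive or clear mast cell mediators had a median of -0.07, and 8 of the 12 were lower. Hrh1, the histamine H1 receptor, differed by -0.43, F2rl1, the protease-activated receptor that tryptase can cleave, by -0.42 and Ptgdr, a receptor for prostaglandin D2, by -0.52.

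**Figure D4:**
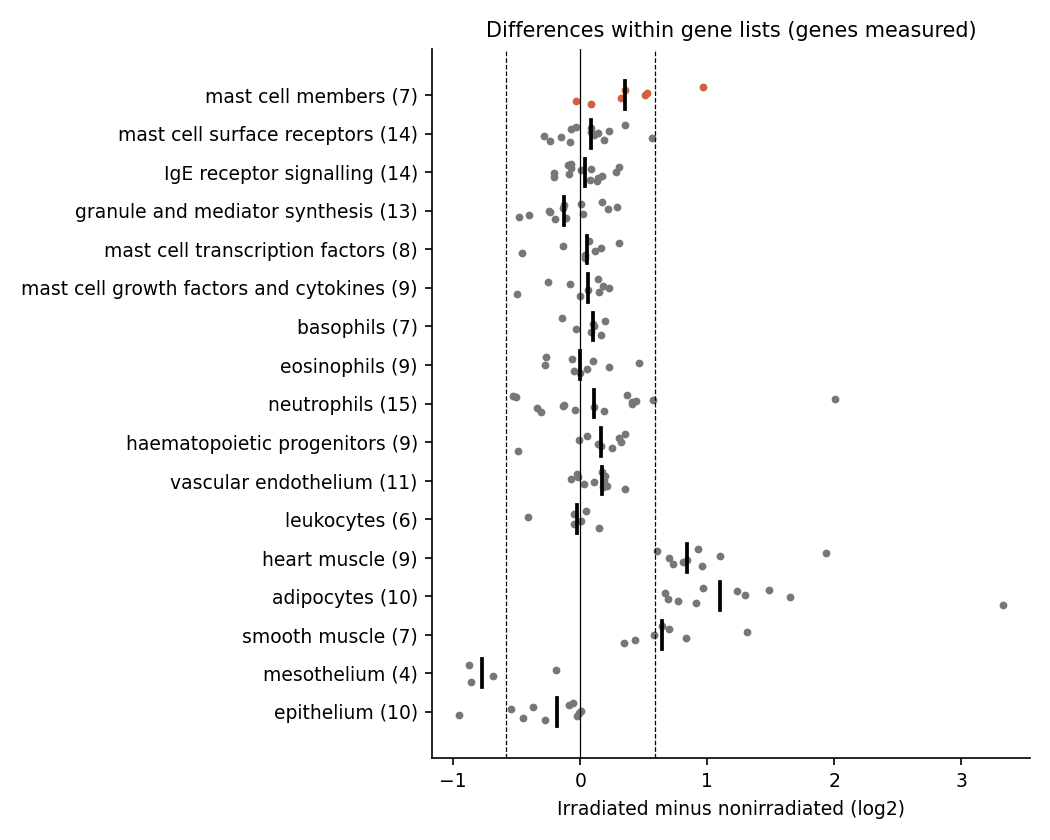
Differences between the arrays (irradiated minus nonirradiated, log2, x axis) of the genes in each list (points, number measured in brackets), with the median as a bar and 1.5-fold as dashed lines. The mast cell members have a median of 0.35, between the lists of mast cell receptors, signalling, mediator, transcription factor and cytokine genes, which lie from -0.13 to 0.08, and those of heart muscle (0.84), adipocytes (1.10) and smooth muscle (0.65).

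Markers of other cells were set beside the members. Kit is also expressed by lung capillary endothelium and haematopoietic progenitors. Without Kit, 10 endothelial genes had a median of 0.14, with 7 higher, and mean log2 values of 10.60 (nonirradiated) and 10.70 (irradiated). None of them reached 1.5-fold, against 2.07% of all genes higher and 1.2% lower. Emcn and Tek, both of endothelium, differed by 0.21 and 0.19. Of 8 progenitor genes without Kit, 6 were higher, with a median of 0.15 and mean values of 9.04 and 9.13. The largest difference in that list was that of Spink2, at -0.49, and Meis1, a homeobox transcription factor, differed by 0.32. The part of either cell type in the Kit value was not tested.

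Basophil genes outside the members numbered 5 and had a median of 0.11, with Prss34 at 0.20 and mean values of 7.07 and 7.15. Eosinophil genes had a median of 0.00 over 9 genes, with Il5ra at 0.47 and Epx, the eosinophil peroxidase, dim and at -0.27. The 6 general leukocyte genes had a median of -0.02, 3 higher and 3 lower, with mean values of 10.52 and 10.46. Differences of these 6 genes ran from -0.41 to 0.15, and the highest was that of Cd53.

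Genes of fat, heart and smooth muscle were higher in the same array as Cpa3. All 10 adipocyte genes were at least 1.5-fold higher, with mean values of 7.74 and 9.04. So were all 9 heart muscle genes (8.91 and 9.86) and 4 of 7 smooth muscle genes (9.23 and 9.92). Over all genes, 2.07% were at least 1.5-fold higher and 1.2% at least 1.5-fold lower. The differences ran from 0.67 to 3.33 in adipocyte genes (median 1.10), from 0.61 to 1.93 in heart muscle genes (median 0.84) and from 0.34 to 1.31 in smooth muscle genes (median 0.65). In fat the highest was Ucp1, the heat-producing carrier of brown fat, and in heart Nppa, the atrial natriuretic peptide. The 4 mesothelial genes, of the lining of the lung, had a median of -0.77, with 3 at least 1.5-fold lower, and mean values of 9.44 and 8.79. Of 10 epithelial genes 9 were lower, and the list had a median of -0.18 and mean values of 11.04 and 10.76. The part of these tissues in the mast cell values was not tested.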

How the data were processed

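Total RNA extracted with Trizol from lung (300 ng) received a biotin label and was measured on Affymetrix whole-transcript arrays, as the labels' protocols give. The authors deposited log2 values. The submitters' processing notes name RMA and Affymetrix Expression Console, version 1.3.1. The authors' deposited log2 ratio equals irradiated minus nonirradiated, and their deposited fold is the antilog of its size. The workbook and the value table agreed to rounding. Of 41345 rows, 6980 array controls were left out and rows of 1 symbol were averaged (Python 3.11.15, pandas 2.3.3). The members and all lists were chosen with earlier results of these data known, so no list is independent support for a direction already seen. Of 206 distinct list genes, 177 matched by symbol and 4 by a RefSeq synonym. A further 18 were matched to an unnamed cluster covering at least 80% of the gene, an alternative added after seeing the data, and 7 were not matched. Genes that could be named were the members, their close homologues, and in each list those at 1.5-fold or the 3 with the largest differences. Only some of those of fat, heart, smooth muscle, mesothelium and epithelium are named, and 1 gene that the rule names elsewhere is not reported here. Kitl, Mrgprb2, Sftpc, Scgb1a1 and the genes named by position were chosen after their values were seen. Technical spread was taken from array controls and from the 407 bright genes measured by more than 1 row (pooled SD 0.28). Trend removal (lowess, statsmodels 0.14.6) was tested on simulated data.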

Additional observations from a re-analysis of the deposited data

How the results depend on the processing

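With 1 array per group no replicate could be left out. No paired analysis was possible because each group has 1 array and the result comes from no test. The alternatives were a lowess trend removed, median centring, the brightest row per gene, no cross-hybridising rows, the main probe category, the value table, bright genes alone, and clusters named by position. A value was taken as unmoved within 0.28, the pooled SD within genes. Of 229 recomputed values 225 were unmoved and 4 moved. Within that tolerance 5 values, in 3 lists with medians near 0, turned sign: neutrophils (0.11 to -0.04 with the brightest row or the main category, -0.13 among bright genes), eosinophils (0.00 to -0.02 without cross-hybridising rows) and leukocytes (-0.02 to 0.02 with the trend removed). No member turned sign, but most settings could not change a member. Each member with a symbol rests on 1 row of the main probe category, not annotated as cross-hybridising. Only the trend removal altered a member's value, so the unmoved values of members under the other settings are not support. Cpa3 ranged from 0.97 to 1.00 and Kit from 0.35 to 0.38. The member median was 0.66 among bright genes, where the filter leaves 2 members, Cpa3 and Kit, and 0.33 to 0.41 otherwise. Members past 1.5-fold numbered 5 at a 1.2-fold limit and 0 at 2-fold, and 2 with Hdc named by position, which was lower. Arrays give no depth. The 5 dim members limit what the signal can show.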

Other observations

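Unnamed clusters lying over genes that regulate or supply mast cells gave further values, and these names rest on position alone. The cluster over Tslp, an epithelial cytokine that promotes allergic inflammation, read 6.78 without and 7.36 with irradiation, a difference of 0.57. It lay below the median over genes in the nonirradiated array (7.27) and just above it in the irradiated array (7.26). Il33, an epithelial and endothelial alarmin whose receptor mast cells carry, read 10.10 and 10.05. Il4, a cytokine made by mast cells, basophils and T cells, was dim at 5.59 and 5.92. The cluster over Mitf, the mast cell and melanocyte transcription factor, differed by 0.04. Slc18a2, the transporter that loads histamine into granules, was dim at 6.42 and 6.26, and Tph1, which makes serotonin in mouse mast cells, was dim at 5.43 and 5.66. Among signalling genes Lyn, the first kinase at the IgE receptor, differed by 0.09, and the adaptor Lcp2 by 0.29. Agtr1a, a receptor for angiotensin II, a peptide that some chymases can form, read 9.72 and 10.04, a difference of 0.32.

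The unnamed cluster over the Hdc locus, at -0.61, was bright and at least 1.5-fold lower. Among the members with a symbol, Cpa3, at 0.97, was the bright one that was at least 1.5-fold higher. A search of the deposited annotation by symbol does not return the unnamed cluster, and its link to Hdc rests on position alone.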
